A study of Mus musculus with 4 samples.

Results

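Mouse embryonic stem cells (ESCs) hold their state through a small circuit of transcription factors, and 10 genes of that circuit are described here: Pou5f1, Sox2, Nanog, Klf4, Klf2, Esrrb, Tfcp2l1, Tbx3, Zfp42 and Fbxo15. They were taken by gene symbol with no cut on their values, and Fbxo15, which encodes no transcription factor, was added as a marker of the naive state. Each of the 10 had a row in every library. They were 10 of 24190 listed gene symbols and held 28 of 58853 listed transcripts.

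The libraries were 4, all poly-A RNA from E14Tg2a, a widely used ESC line from a male embryo, kept serum-free under MEK and GSK3β inhibition. In one line, called the fusion line here, an integrated promoter of Zscan4c drove GFP fused to Zscan4c (GFP-Zscan4c), and cells were sorted into GFP-positive and GFP-negative populations. In the other, the plain-GFP line, the same promoter drove GFP alone, and the same populations were sorted. Each line was clonal, so a line is 1 clone as well as 1 construct, and each population was 1 library. The labels call GFP-positive cells 2C-like, for their likeness to the 2-cell embryo, and GFP-negative cells pluripotent. Nothing states that the lines were grown or sorted as separate experiments, and p-values therefore reflect no more than how far the 4 libraries differ.

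Pou5f1 (also called Oct4) and Sox2 bind DNA as a pair and, with the homeodomain factor Nanog, form the core of the circuit. Klf2, Klf4, Esrrb, Tfcp2l1 and Tbx3 are the naive layer: LIF acting through Stat3 feeds Klf4 and Tfcp2l1, and inhibition of GSK3 relieves repression of Esrrb by Tcf7l1. Zfp42 (also called Rex1) and Fbxo15 are readouts of that state. Cells of the 2C-like state arise at low frequency in ESC culture and are known for losing Pou5f1 protein while its mRNA persists. Protein was not measured in these libraries.

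Across the 10 genes, Tbx3 and Fbxo15 were higher in GFP-positive cells of both lines, by 3.20-fold and 3.11-fold in the fusion line and by 3.48-fold and 2.21-fold in the plain-GFP line. Pou5f1, Sox2, Esrrb and Tfcp2l1 were lower in both GFP-positive libraries than in both GFP-negative libraries, each by less than 2-fold. Nanog was higher within each line, by 1.20-fold in the fusion line and 1.08-fold in the plain-GFP line, but its populations overlapped. Zfp42 was close to level, and Klf4 and Klf2 went opposite ways in the lines. No member was listed at 0 in any library. TPM (a length-scaled share of the library's transcripts) is the unit throughout. A log2 ratio is log2 of TPM plus a pseudocount of 1 in GFP-positive cells minus the same in GFP-negative cells, and fold values are ratios of TPM. In bulk RNA of this kind, fewer cells with a transcript and less transcript per cell cannot be told apart.

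The libraries differed in ways that touch these values. In the GFP-negative library of the plain-GFP line 48.4% of symbols were listed at 0, against 11.6% to 19.5% in the other libraries. Of 1262 symbols averaging 50 to 100 TPM elsewhere, 2.06% were at 0 there, against 0.158% to 0.166% by the same measure in each of the other libraries. TPM hold no read counts, so depth is unknown. The listed transcripts made up 66.6% to 69.1% of a full TPM scale. Zscan4c, whose promoter drove the reporter and to which reads of the fusion transgene can be assigned, was at 366 TPM in GFP-positive and 4.11 TPM in GFP-negative cells of the fusion line, and at 497 TPM in GFP-positive and 9.24 TPM in GFP-negative cells of the plain-GFP line.

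Pou5f1 encodes the POU factor without which the pluripotent state is lost, and its gene lies at chr17:35506018-35510772 on the plus strand (GRCm38, GENCODE M21, as for all positions here). In the fusion line it was at 1103 TPM in GFP-positive cells and 1138 TPM in GFP-negative cells. The plain-GFP line had 1075 TPM in GFP-positive cells and 1447 TPM in GFP-negative cells. Both GFP-positive values lay below both GFP-negative ones, and the GFP-negative library of the plain-GFP line stood highest. The log2 ratio was -0.04 in the fusion line and -0.43 in the plain-GFP line. Of its 5 listed transcripts, Pou5f1-201 carried at least 99.4% of the TPM in every library. Gm19553, annotated on the opposite strand across Pou5f1, was at most 3.78 TPM.

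Sox2, the HMG-box partner of Pou5f1, is a gene with 1 listed transcript at chr3:34650405-34652461. It was at 554 TPM in GFP-positive and 647 TPM in GFP-negative cells of the fusion line. The plain-GFP line had 434 TPM in GFP-positive and 638 TPM in GFP-negative cells. The GFP-negative libraries nearly coincided and the GFP-positive ones lay below them, with log2 ratios of -0.22 in the fusion line and -0.55 in the plain-GFP line.

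Nanog, at chr6:122707489-122714633, encodes a homeodomain protein known to vary from cell to cell in ESC cultures. Its level was 359 TPM in GFP-positive and 299 TPM in GFP-negative cells of the fusion line, and 419 TPM in GFP-positive and 387 TPM in GFP-negative cells of the plain-GFP line. GFP-positive cells were higher within each line, by 1.20-fold and 1.08-fold, but the populations overlapped, because the GFP-negative cells of the plain-GFP line lay above the GFP-positive cells of the fusion line. The main transcript, Nanog-201, carried between 89.1% and 95.1% of the gene's TPM.

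A near-identical copy limits the Nanog value. The processed copy Nanog-ps1 has a listed transcript of 250 bases, of which 245 align to Nanog-201 at 97.6% identity, so reads from that stretch cannot be divided with certainty. Nanog-ps1 was at 106 TPM in GFP-positive and 88.4 TPM in GFP-negative cells of the fusion line, and at 10.9 TPM in GFP-positive and 112 TPM in GFP-negative cells of the plain-GFP line. Because the copy is short, these values correspond to few reads on the scale of Nanog. With the copy's TPM rescaled to the length of Nanog-201 and added, Nanog was at 371 TPM in GFP-positive and 309 TPM in GFP-negative cells of the fusion line, and at 420 TPM in GFP-positive and 399 TPM in GFP-negative cells of the plain-GFP line. The order of the libraries did not change.

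The stretch of genome just before the Nanog start is a textbook example of a site that Pou5f1 and Sox2 bind side by side, and it is shown with that of Zfp42, the steadiest member. The windows shown here were read from RefSeq (GRCm38.p6), reach at most 250 bases before an annotated start, and were available for 8 of the 10 members, in 11 windows. They are written 5′ to 3′ on the gene's strand, with searched letters in capitals. In the Nanog window (chr6:122707239-122707488, plus strand), the capitals mark the octamer word of Pou5f1 (ATGCAAA, here as TTTGCAT, bases -75 to -69 from the RefSeq start) and the Sox word (CATTGT, here as ACAATG, bases -67 to -62), which do not overlap and stand 1 base apart. In the Zfp42 window (chr8:43307010-43307259, minus strand) they mark the octamer word and the GC box (GGGCGGGG, here as CCCCGCCC), a sequence of the kind that Sp and Klf zinc fingers read.
Nanog: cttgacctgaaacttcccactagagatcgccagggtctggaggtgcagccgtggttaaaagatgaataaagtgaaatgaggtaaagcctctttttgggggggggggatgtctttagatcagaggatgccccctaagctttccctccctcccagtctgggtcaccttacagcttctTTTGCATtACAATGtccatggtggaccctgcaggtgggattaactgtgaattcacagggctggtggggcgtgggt
Zfp42: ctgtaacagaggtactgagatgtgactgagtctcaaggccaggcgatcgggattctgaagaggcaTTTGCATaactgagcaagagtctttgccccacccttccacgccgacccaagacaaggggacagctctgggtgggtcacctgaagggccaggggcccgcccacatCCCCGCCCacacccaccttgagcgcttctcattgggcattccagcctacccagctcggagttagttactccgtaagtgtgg

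Both strands were searched. The octamer word was in 4.12% of 32851 RefSeq windows of this length, and in the windows of Nanog, Sox2 and Zfp42 among the members. The Sox word was in 10.7% of all windows, and in those of Nanog and Pou5f1. The Pou5f1 match was in a window starting at chr17:35508557, which lies inside the gene, and not in the window before the gene. The GC box was in 16.1% of all windows, and in those of Klf2, Klf4, Pou5f1, Sox2 and Zfp42. A T-box word (AGGTGTGA, in 1.12% of windows), a nuclear receptor word (AAGGTCA, in 4.08%) and a TG repeat (TGTGTGTG, in 3.55%), the microsatellite letters that the study's title connects with Zscan4, were in none of the 11 member windows. These are matches of letters within short windows, not measured binding. Of the octamer carriers, Sox2 was lower in both GFP-positive libraries, while Nanog and Zfp42 overlapped. The part of these words in the ratios was not tested.

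**Figure D1:**
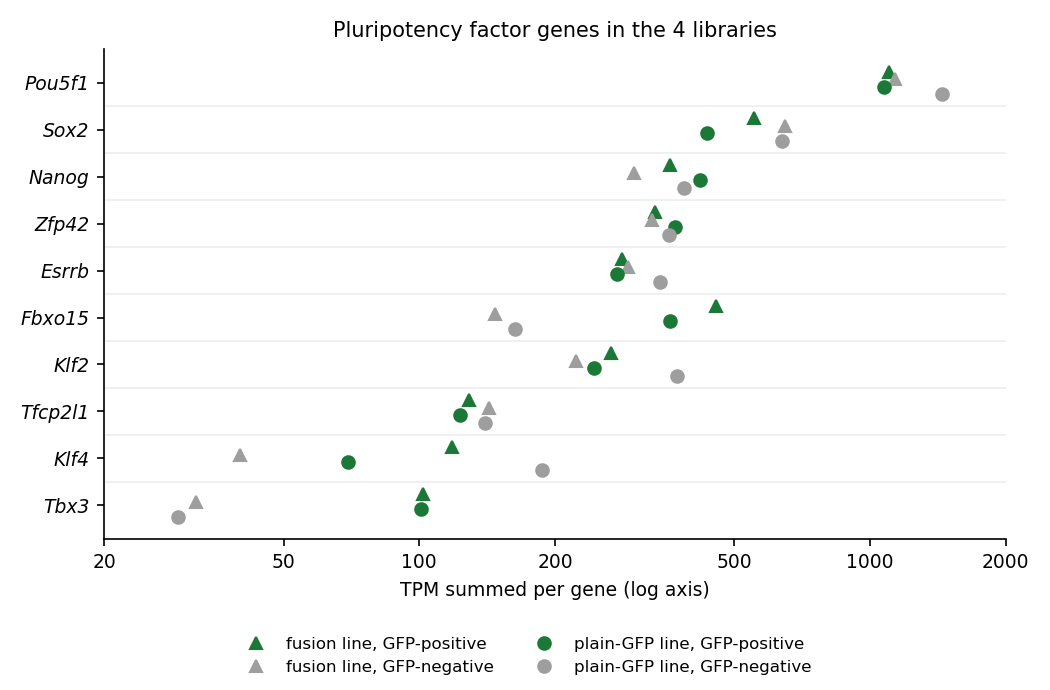
TPM summed per gene (horizontal log axis) of the 10 genes in the 4 libraries, 1 point per library, with triangles for the fusion line, circles for the plain-GFP line, green for GFP-positive and grey for GFP-negative cells, and genes ordered by mean. The green points of Tbx3 and Fbxo15 lie above both grey ones, those of Pou5f1, Sox2, Esrrb and Tfcp2l1 lie below them, and the 4 points of Klf4 spread from 40.1 to 187 TPM.

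Tbx3, a T-box factor of the naive layer, had the largest ratio among the members in the plain-GFP line and, with Fbxo15 close to it, in the fusion line. With a pseudocount of 5 TPM the order in the fusion line turned, to 1.54 for Tbx3 and 1.60 for Fbxo15 on the log2 scale. Its gene is at chr5:119670669-119684724 on the plus strand. It was at 102 TPM in GFP-positive and 32.0 TPM in GFP-negative cells of the fusion line, and at 101 TPM in GFP-positive and 29.1 TPM in GFP-negative cells of the plain-GFP line. The GFP-positive libraries nearly coincided, as did the GFP-negative ones, and the populations did not overlap. The log2 ratios were 1.65 in the fusion line, where 94.7% of genes tested had a smaller ratio, and 1.76 in the plain-GFP line, where 72.6% did. Ratios of all genes were spread more widely in the plain-GFP line, with an upper quartile of 1.95, against 0.41 in the fusion line. Tbx3os1, on the opposite strand, was at most 1.72 TPM.

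The transcripts behind Tbx3 were not the same in the lines. Tbx3 is known to be spliced with or without a short exon that adds residues inside the DNA-binding T-box. Among its 3 listed coding transcripts, Tbx3-201 alone carries this exon of 60 bases, or 20 codons (chr5:119675243-119675302, plus strand, exon 3 of that transcript). The exon is shown because Tbx3-201 was assigned TPM almost only in the fusion line, although the same held for Tbx3-203, which lacks it. The forms also differ elsewhere, with 8 exons in Tbx3-201, 7 in Tbx3-202 and 8 in Tbx3-203.
Tbx3 exon: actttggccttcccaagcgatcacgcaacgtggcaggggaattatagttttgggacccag

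Tbx3-201 was at 39.6 TPM in GFP-positive and 18.1 TPM in GFP-negative cells of the fusion line, which is 38.6% and 56.4% of the gene. In the plain-GFP line it was at 0.0672 TPM in GFP-positive and 0.0356 TPM in GFP-negative cells, 0.0664% and 0.122% of the gene. The form with the exon was therefore assigned TPM in the fusion line and next to none in the plain-GFP line, in both populations. Tbx3-202, which lacks it, was at 23.4 TPM in GFP-positive and 3.88 TPM in GFP-negative cells of the fusion line, and at 89.7 TPM in GFP-positive and 23.4 TPM in GFP-negative cells of the plain-GFP line. It was higher in GFP-positive cells of both lines, as was the gene total. Tbx3-203 held 37.5 TPM in GFP-positive and 3.16 TPM in GFP-negative cells of the fusion line, and at most 0.127 TPM in the plain-GFP line. Tbx3-203 also lacks the exon, so the split between the lines did not follow the exon. TPM per transcript are the authors' estimates of how shared reads divide, and the part of that division in the split between lines was not tested.

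Fbxo15 encodes an F-box protein, a subunit of ubiquitin ligases, and is a textbook target of Pou5f1 and Sox2 that served as a reporter in reprogramming work. Its 1 listed transcript was at 456 TPM in GFP-positive and 147 TPM in GFP-negative cells of the fusion line, and at 359 TPM in GFP-positive and 163 TPM in GFP-negative cells of the plain-GFP line. Both GFP-positive libraries stood above both GFP-negative ones. The log2 ratio was 1.63 in the fusion line, above 94.6% of genes tested, and 1.14 in the plain-GFP line, above 64.6% of them. Among the 10 members it ranked 3 by level in GFP-positive and 7 in GFP-negative cells of the fusion line, and 5 in GFP-positive and 8 in GFP-negative cells of the plain-GFP line. The mRNA of its known activators Pou5f1 and Sox2 was lower in the same GFP-positive libraries. For Pou5f1 in the fusion line the difference was small (log2 ratio -0.04). A link between these levels and Fbxo15 was not tested.

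Klf4 was the member on which the lines disagreed most. It encodes a zinc finger factor downstream of LIF and is the K of the reprogramming cocktail, at chr4:55527143-55532466 on the minus strand. It was at 118 TPM in GFP-positive and 40.1 TPM in GFP-negative cells of the fusion line, and at 69.5 TPM in GFP-positive and 187 TPM in GFP-negative cells of the plain-GFP line. The highest and the lowest values were both GFP-negative, 4.67-fold apart, and the GFP-positive values lay between them. GFP-positive cells were thus 2.95-fold higher in the fusion line (log2 ratio 1.54) and at 0.371 of the GFP-negative level in the plain-GFP line (log2 ratio -1.42). The difference between the lines, 2.95 on the log2 scale, has no replicate error, and 13.2% of genes tested differed by more.

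Klf4-201, the full-length transcript, followed the gene, at 115 TPM in GFP-positive and 38.3 TPM in GFP-negative cells of the fusion line and 60.1 TPM in GFP-positive and 172 TPM in GFP-negative cells of the plain-GFP line. Its share of Klf4 was between 86.4% and 96.9%. The opposite directions were therefore those of the main transcript, not of a minor one. Of the short transcripts, Klf4-203 was at 3.42 TPM in GFP-positive and 1.63 TPM in GFP-negative cells of the fusion line, and at 3.58 TPM in GFP-positive and 13.7 TPM in GFP-negative cells of the plain-GFP line. Klf4-202 was under 2 TPM except in GFP-positive cells of the plain-GFP line, where it was at 5.89 TPM.

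Klf2, a Krüppel-like factor that can stand in for Klf4 in ESCs, had 1 listed transcript at chr8:72319033-72321656. It was at 266 TPM in GFP-positive and 223 TPM in GFP-negative cells of the fusion line, and at 244 TPM in GFP-positive and 373 TPM in GFP-negative cells of the plain-GFP line. As with Klf4, both GFP-positive values fell between the GFP-negative ones, with the GFP-negative library of the plain-GFP line on top. The log2 ratios were 0.25 in the fusion line and -0.61 in the plain-GFP line. They differed by 0.86, which 44.6% of genes tested exceeded.

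Klf4 and Klf2 have windows in which the GC box recurs. It also recurs in the Sox2 window and is present in those of Pou5f1 and Zfp42, so it is not particular to this pair. The Klf4 and Klf2 windows are shown side by side because these members went opposite ways in the lines. A link between the word and that pattern was not tested. The capitals mark the GC box on either strand, 4 times in Klf4 (chr4:55532476-55532725, minus strand), where 2 of the matches overlap, and 2 times in Klf2 (chr8:72318812-72319032, plus strand).
Klf4: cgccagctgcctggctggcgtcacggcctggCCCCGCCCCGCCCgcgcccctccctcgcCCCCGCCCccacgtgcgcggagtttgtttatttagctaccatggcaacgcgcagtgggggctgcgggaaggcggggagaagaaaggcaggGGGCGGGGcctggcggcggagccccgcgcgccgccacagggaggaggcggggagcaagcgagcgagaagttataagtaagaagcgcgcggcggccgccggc
Klf2: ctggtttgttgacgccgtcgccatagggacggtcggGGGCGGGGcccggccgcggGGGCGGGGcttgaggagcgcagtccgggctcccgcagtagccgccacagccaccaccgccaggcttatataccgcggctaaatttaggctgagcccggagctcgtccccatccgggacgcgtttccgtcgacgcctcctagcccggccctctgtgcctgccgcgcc

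Esrrb, an orphan nuclear receptor, lies at chr12:86361117-86521628. The gene was at 281 TPM in GFP-positive and 290 TPM in GFP-negative cells of the fusion line, and at 275 TPM in GFP-positive and 342 TPM in GFP-negative cells of the plain-GFP line. Both GFP-positive values were under both GFP-negative ones, by little in the fusion line (log2 ratio -0.04) and by more in the plain-GFP line (-0.31). Its transcripts were divided quite differently in 1 library. Esrrb-201 was at 266 TPM in GFP-positive and 274 TPM in GFP-negative cells of the fusion line and at 199 TPM in GFP-positive cells of the plain-GFP line, but was listed at 0 in its GFP-negative cells. There Esrrb-206 carried 100% of the gene, at 342 TPM, against 12.8 to 14.0 TPM in the other libraries.

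Esrrb-203 was at 60.0 TPM in GFP-positive cells of the plain-GFP line and listed at 0 elsewhere. The GFP-negative library of the plain-GFP line had 9 of the 28 member transcripts at 0, against 0 to 2 in the others, and it is the library with the most symbols at 0. The part of transcript assignment in this switch was not tested. The gene total is the value read here, since a ratio of Esrrb-201 alone would reverse the direction in the plain-GFP line (log2 ratio 7.65).

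**Figure D2:**
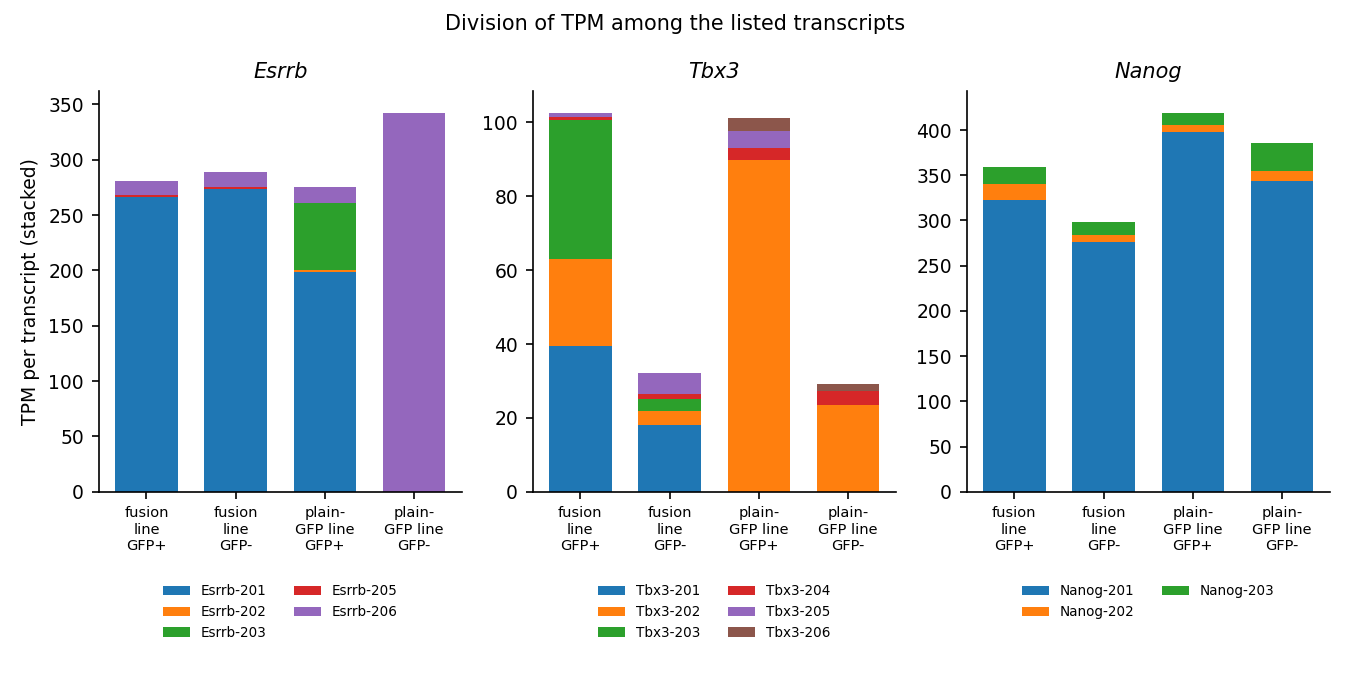
TPM of each listed transcript of Esrrb, Tbx3 and Nanog (vertical axis, linear and stacked to the gene total) in the 4 libraries (GFP+ is GFP-positive, GFP- is GFP-negative). Esrrb is mainly Esrrb-201 (72.3% to 94.8%) except in GFP-negative cells of the plain-GFP line, where it is all Esrrb-206. Tbx3-201 and Tbx3-203 are visible in the fusion line only, while Nanog is mainly Nanog-201 in every library.

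Tfcp2l1, a grainyhead-family factor downstream of Stat3 at chr1:118627945-118685168, varied little. It was at 129 TPM in GFP-positive and 143 TPM in GFP-negative cells of the fusion line, and at 123 TPM in GFP-positive and 140 TPM in GFP-negative cells of the plain-GFP line. GFP-positive cells were lower in both lines by a like amount, with log2 ratios of -0.15 and -0.18. The small RNA gene Gm23497 lies inside it on the same strand and was at most 6.10 TPM.

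Zfp42, whose zinc finger protein Rex1 marks naive cells and is lost on exit from that state, is at chr8:43295063-43306980 on the minus strand. It had the narrowest range of the members. The gene was at 333 TPM in GFP-positive and 328 TPM in GFP-negative cells of the fusion line, and at 369 TPM in GFP-positive and 358 TPM in GFP-negative cells of the plain-GFP line. The highest value was 1.13-fold the lowest, and the lines stood further apart than the populations. Its log2 ratios of 0.03 and 0.05 do not fix a direction: under median-ratio scaling of the libraries the ratio in the fusion line was -0.13, and under quantile normalization it was -0.07.

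These counts were set against all genes. In the fusion line, 3 of 10 members (Klf4, Tbx3 and Fbxo15) were 2-fold or more higher in GFP-positive cells, against 7.93% of 10932 genes tested, and 0 were 2-fold or more lower, against 3.05%. The plain-GFP line had 2 of 10 higher (Tbx3 and Fbxo15), against 33.5% of 10892 genes, and 1 lower (Klf4), against 6.31%. Both lines together had 2 of 10 higher, against 4.11% of 10245 genes, 0 lower, against 0.654%, and 1 past 2-fold in opposite directions, against 1.54%.

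The share of 33.5% includes genes listed at 0 in GFP-negative cells, and among genes above 0 in every library 1536 of 8759 were higher in the plain-GFP line. Of the members 9 averaged 100 TPM or more, so abundant genes are the closer comparison. Among genes averaging 100 TPM or more, a comparison chosen after seeing the data, 5.68% of 1198 were 2-fold or more apart in the fusion line and 7.18% in the plain-GFP line, while Klf4 and Fbxo15 were so in each line among the 9 members at that level. Complete separation of the populations was a more common pattern. Both GFP-positive libraries were above both GFP-negative ones for 2 of 10 members, against 34.3% of 14379 genes and 18.6% of those at 100 TPM or more. They were below for 4 of 10 members (Pou5f1, Sox2, Esrrb and Tfcp2l1), against 8.71% of all genes and 17.4% of those at 100 TPM or more.

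The median log2 ratio of the members was 0.14 in the fusion line and -0.25 in the plain-GFP line. For all genes tested it was 0.15 in the fusion line and 0.32 in the plain-GFP line, and for genes at 100 TPM or more 0.03 and -0.11. The middle 50% of those abundant genes ran between -0.11 and 0.18 in the fusion line and between -0.32 and 0.12 in the plain-GFP line. Against that spread Pou5f1, Esrrb and Zfp42 were inside in the fusion line, and Nanog, Esrrb, Tfcp2l1 and Zfp42 in the plain-GFP line. Median-ratio scaling moved the median of all genes in the fusion line to 0.00, a shift beyond 0.1, and there the members read 1.49 for Tbx3, 1.47 for Fbxo15, 1.38 for Klf4, -0.38 for Sox2 and -0.20 for Pou5f1.

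**Figure D3:**
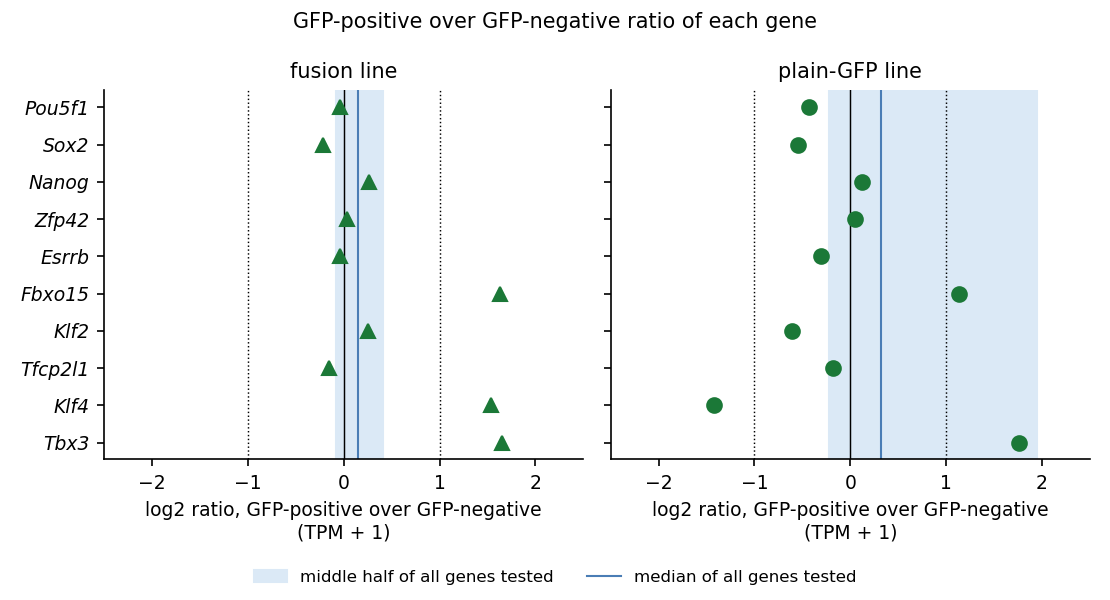
Log2 ratio of GFP-positive over GFP-negative cells in the fusion line and the plain-GFP line for each of the 10 genes, 1 library per population and so no error bars. The shaded band is the middle 50% of all genes tested and the blue line their median. Tbx3 and Fbxo15 pass 2-fold (log2 ratio of 1) in both lines, and Klf4 passes it in opposite directions, at 1.54 in the fusion line and -1.42 in the plain-GFP line, where the wide band takes in Tbx3 and Fbxo15.

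The lines were the only repeat of the sort, and a fit over both gave a test. In limma with GFP status and line as terms, 0 of 14379 genes (0%) had an adjusted p under 0.05, while 6.76% reached an unadjusted p under 0.05. Tbx3 had an estimate of 1.70 ± 0.18 (log2, SE; 2 libraries in each population) with an adjusted p of 0.460 in limma and an unadjusted p of 0.00152, and it ranked 33 by p. Fbxo15 had 1.38 ± 0.18 with a limma adjusted p of 0.460, an unadjusted p of 0.00348 and rank 51. Both were higher in 2 of 2 lines and neither passed the correction. After quantile normalization both passed it in limma (adjusted p of 5.2e-09 for Tbx3 and 9.9e-16 for Fbxo15), as did 342 of 14379 genes. Without the GFP-negative library of the fusion line, GFP-negative cells are the 1 library with the most zeros. That fit has no term for line, and its estimates were 1.77 for Tbx3 and 1.31 for Fbxo15.

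The other members also did not pass. Sox2 had an estimate of -0.39 ± 0.14 (limma adjusted p = 0.683), Pou5f1 -0.24 ± 0.15 and Nanog 0.19 ± 0.13. Klf4, with opposite ratios, had 0.06 ± 0.83, a standard error that carries the disagreement of the lines. Esrrb, Tfcp2l1, Klf2 and Zfp42 had estimates between -0.18 and 0.04. With 1 residual degree of freedom these p-values cannot show that a gene was level.

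The balance of the factors within a library is free of scaling between libraries, and it was expressed per 100 TPM of Pou5f1. Sox2 stood at 50.3 in GFP-positive and 56.8 in GFP-negative cells of the fusion line and at 40.4 in GFP-positive and 44.1 in GFP-negative cells of the plain-GFP line. Nanog stood at 32.5 in GFP-positive and 26.3 in GFP-negative cells of the fusion line and at 39.0 in GFP-positive and 26.7 in GFP-negative cells of the plain-GFP line. The ratio of Nanog to Pou5f1 was thus higher in GFP-positive cells of both lines, without overlap, although Nanog itself overlapped. This was not particular to Nanog. Zfp42 stood at 30.2 in GFP-positive and 28.8 in GFP-negative cells of the fusion line. In the plain-GFP line it stood at 34.3 in GFP-positive and 24.7 in GFP-negative cells. Pou5f1, the denominator, was itself lower in both GFP-positive libraries.

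Esrrb kept a nearly constant proportion, at 25.5 in GFP-positive and 25.4 in GFP-negative cells of the fusion line and at 25.6 in GFP-positive and 23.6 in GFP-negative cells of the plain-GFP line. Tbx3 was at 9.28 in GFP-positive and 2.82 in GFP-negative cells of the fusion line and at 9.42 in GFP-positive and 2.01 in GFP-negative cells of the plain-GFP line. Fbxo15 was at 41.3 in GFP-positive and 12.9 in GFP-negative cells of the fusion line and at 33.4 in GFP-positive and 11.2 in GFP-negative cells of the plain-GFP line. On this scale Tbx3 and Fbxo15 again separated the populations in both lines.

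By mean level over the 4 libraries the order was Pou5f1 (1191 TPM), Sox2 (568), Nanog (366), Zfp42 (347), Esrrb (297), Fbxo15 (281), Klf2 (277), Tfcp2l1 (134), Klf4 (104) and Tbx3 (66.2). Pou5f1 and Sox2 ranked first and second in every library. Neighbours in the order had ranges that did not overlap between Pou5f1 and Sox2, between Sox2 and Nanog, and between Klf2 and Tfcp2l1. The remaining neighbours had ranges that overlapped, although Zfp42 stood above Esrrb within each of the 4 libraries. Summed over the 10 genes, the level was 3702 TPM in GFP-positive and 3285 TPM in GFP-negative cells of the fusion line, and 3470 TPM in GFP-positive and 4064 TPM in GFP-negative cells of the plain-GFP line.

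The constructs were then compared at matched GFP status, the fusion line over the plain-GFP line, with 1 library on each side and no test. In GFP-positive cells 9 of the 10 members had log2 differences between -0.22 (Nanog) and 0.35 (Sox2). The exception was Klf4, at 0.76 (118 TPM in the fusion line and 69.5 TPM in the plain-GFP line). In GFP-negative cells Klf4 was at -2.20, or 0.214 of the level in the plain-GFP line, and Klf2 at -0.74. The rest ran from -0.37 for Nanog to 0.13 for Tbx3. The opposite ratios of Klf4 and Klf2 thus went with a larger gap between the GFP-negative libraries than between the GFP-positive ones. Construct, clone and library cannot be told apart as sources of that gap.

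The genes whose pattern over the 4 libraries was nearest to that of Tbx3 and Fbxo15 were found by Euclidean distance of centred log2 values among 5141 genes averaging 20 TPM or more. For Tbx3 they were Uap1 (distance 0.35), which encodes an enzyme of nucleotide-sugar synthesis, Ctr9 (0.36), of the Paf complex, and Pisd-ps1 (0.40). For Fbxo15 they were Pisd-ps1 (0.20), Ggnbp2 (0.31) and Ube2t (0.38), a ubiquitin-conjugating enzyme of the Fanconi pathway. A likeness over 4 libraries is a description only.

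Other factors of the network did not pass 2-fold. Of 20 listed, 19 were tested, 0 were 2-fold or more apart in either direction in either line, and their median log2 ratio was -0.03 in the fusion line and -0.37 in the plain-GFP line. Of all 14379 genes tested, 9.52% were 2-fold or more higher and 3.79% lower in the fusion line, and 37.4% higher and 5.88% lower in the plain-GFP line. The factor with the highest mean ratio was Rif1, a chromatin and telomere factor known to restrain the 2C-like state, at 84.2 TPM in GFP-positive and 49.0 TPM in GFP-negative cells of the fusion line, and at 60.6 TPM in GFP-positive and 30.4 TPM in GFP-negative cells of the plain-GFP line. The lowest was Zfp57, a guardian of imprints, at 103 TPM in GFP-positive and 129 TPM in GFP-negative cells of the fusion line, and at 101 TPM in GFP-positive and 192 TPM in GFP-negative cells of the plain-GFP line.

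Signals that feed the members were covered by 33 genes, of which 31 were tested. In the fusion line 2 were 2-fold or more higher in GFP-positive cells and 3 lower, against 9.52% and 3.79% of all genes tested, with a median log2 ratio of 0.05. In the plain-GFP line 13 were higher and 1 lower, against 37.4% and 5.88% of all genes tested, with a median of 0.11, but 9 of the 31 were listed at 0 in its GFP-negative cells. For the 22 that were nowhere at 0 the medians were 0.04 in the fusion line and -0.29 in the plain-GFP line. In both lines 2 were higher, the WNT target Axin2 and the BMP target Id3, and 1 was lower, the WNT effector Tcf7. Of 10245 genes that also reached 5 TPM in a library of each pair, 4.11% were higher in both and 0.654% lower. Id3 did not reach 5 TPM in the fusion line, at 2.37 TPM in GFP-positive and 0.517 TPM in GFP-negative cells. In the plain-GFP line it was at 12.9 TPM in GFP-positive and 4.83 TPM in GFP-negative cells.

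Axin2 was at 16.8 TPM in GFP-positive and 4.33 TPM in GFP-negative cells of the fusion line, and at 17.5 TPM in GFP-positive cells and listed at 0 in GFP-negative cells of the plain-GFP line. Tcf7 was at 3.15 TPM in GFP-positive and 17.0 TPM in GFP-negative cells of the fusion line, and at 8.96 TPM in GFP-positive and 32.8 TPM in GFP-negative cells of the plain-GFP line. Both are read in the WNT and GSK3 arm, on which the culture's inhibitor acts, and they went opposite ways.

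Of the LIF arm upstream of Klf4, Stat3 was at 36.5 TPM in GFP-positive and 39.6 TPM in GFP-negative cells of the fusion line, and at 36.6 TPM in GFP-positive and 61.7 TPM in GFP-negative cells of the plain-GFP line. Its target Socs3 was at 55.5 TPM in GFP-positive and 54.9 TPM in GFP-negative cells of the fusion line, and at 41.5 TPM in GFP-positive and 83.8 TPM in GFP-negative cells of the plain-GFP line. The GFP-negative library of the plain-GFP line was highest for both, as it was for Klf4. It was also highest for genes outside this arm, such as Pou5f1, Esrrb, Fgf4 and Trim28, so the trait was not particular to the LIF arm. A link of Stat3 to the Klf4 ratios was not tested. The receptor genes Lifr and Il6st were at 16.7 and 39.5 TPM in GFP-positive and 15.7 and 41.5 TPM in GFP-negative cells of the fusion line. In the plain-GFP line GFP-positive cells had 11.4 TPM of Lifr and 30.4 TPM of Il6st, and both genes were listed at 0 in GFP-negative cells, so no ratio is given for them there.

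In the FGF and MEK arm, Fgf4, a target of Pou5f1 and Sox2, was at 122 TPM in GFP-positive and 124 TPM in GFP-negative cells of the fusion line, and at 123 TPM in GFP-positive and 218 TPM in GFP-negative cells of the plain-GFP line. Dusp6, a readout of MEK activity, was at 12.5 TPM in GFP-positive and 13.8 TPM in GFP-negative cells of the fusion line, and at 7.85 TPM in GFP-positive and 11.6 TPM in GFP-negative cells of the plain-GFP line. Neither was 2-fold apart in either line.

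**Figure D4:**
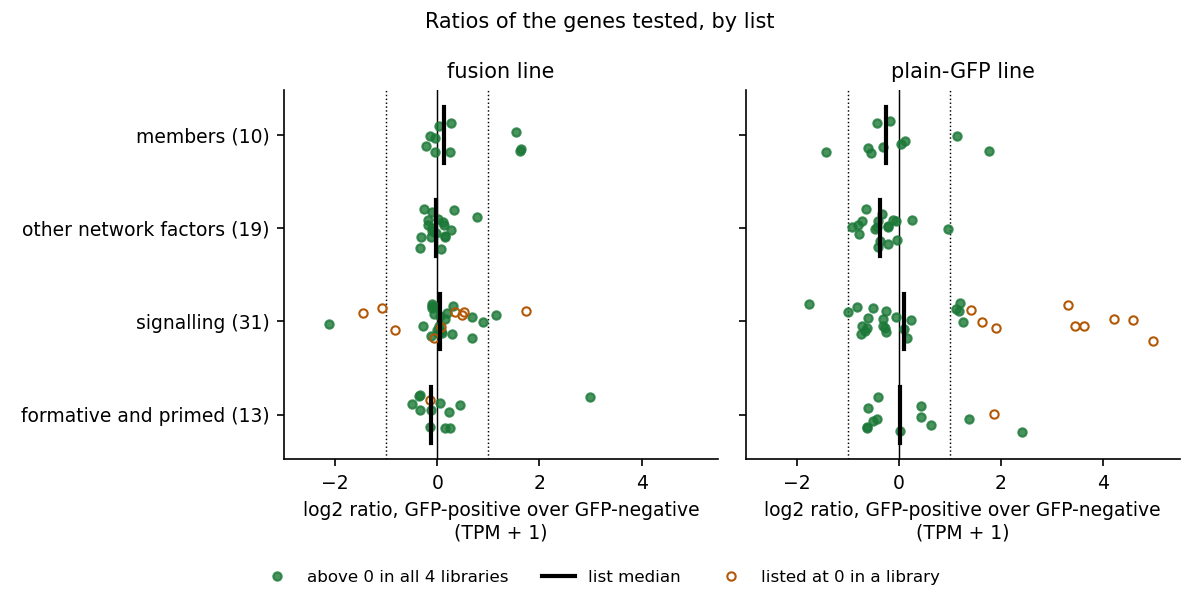
Log2 ratio of GFP-positive over GFP-negative cells (horizontal axis) for the members and 3 other lists in the fusion line and the plain-GFP line, 1 point per gene tested, bars at list medians and dotted lines at 2-fold. Open points are genes listed at 0 in a library, and in the plain-GFP line they make up most of the far right side of the signalling list, whereas all 10 members are filled points.

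Genes of the formative and primed states, into which naive cells pass, were followed as the counterpart of the members. Of 17, 14 had a row and 13 were tested, and Fgf5, Grhl2 and T were not analysed here. In the fusion line 1 was 2-fold or more higher and 0 lower (median -0.12), against 9.52% and 3.79% of all genes tested. In the plain-GFP line 3 were higher and 0 lower (median 0.02), against 37.4% and 5.88%. The gene higher in both was Sox3, a relative of Sox2, at 24.9 TPM in GFP-positive and 2.25 TPM in GFP-negative cells of the fusion line, and at 29.2 TPM in GFP-positive and 4.69 TPM in GFP-negative cells of the plain-GFP line. That was 11.1-fold in the fusion line and 6.23-fold in the plain-GFP line, while Sox2 itself was lower in both. Lefty1, an inhibitor of Nodal with the smallest mean ratio, was at 240 TPM in GFP-positive and 304 TPM in GFP-negative cells of the fusion line, and at 210 TPM in GFP-positive and 322 TPM in GFP-negative cells of the plain-GFP line.

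Markers of other cells are given beside these ratios. The 10 genes listed for the 2-cell-like state include Zscan4c, whose promoter drove the sorted reporter, so their count is not an independent test. Each of the 10 rose past 2-fold with GFP in both lines, against 4.11% of 10245 genes. Zscan4f, Tcstv1, Tcstv3, Duxf3, Zfp352, Tmem92 and Gm8300 passed the filter through the GFP-positive libraries only, being under 1 TPM in the others. The sum over this list was 2215 TPM in GFP-positive and 11.1 TPM in GFP-negative cells of the fusion line. In the plain-GFP line it was 1191 TPM in GFP-positive and 15.2 TPM in GFP-negative cells. Summed trophectoderm markers were at 52.4 TPM in GFP-positive and 65.5 TPM in GFP-negative cells of the fusion line, and at 53.5 TPM in GFP-positive and 78.3 TPM in GFP-negative cells of the plain-GFP line. Primitive endoderm markers summed to 114 TPM in GFP-positive and 214 TPM in GFP-negative cells of the fusion line, where Sparc alone was at 33.7 TPM in GFP-positive and 154 TPM in GFP-negative cells, and to 280 TPM in GFP-positive and 282 TPM in GFP-negative cells of the plain-GFP line. Fibroblast and feeder markers summed to 13.7 TPM in GFP-positive and 3.21 TPM in GFP-negative cells of the fusion line, and to 19.8 TPM in GFP-positive and 9.03 TPM in GFP-negative cells of the plain-GFP line. These sums were higher in GFP-positive cells of both lines, but Thy1 alone held 7.27 TPM of the fusion-line and 11.9 TPM of the plain-GFP-line GFP-positive sum. Col1a1 and Col1a2 were at most 0.114 TPM in any library. Neural markers summed to 41.2 TPM in GFP-positive and 46.5 TPM in GFP-negative cells of the fusion line, and to 72.6 TPM in GFP-positive and 78.7 TPM in GFP-negative cells of the plain-GFP line. Several defining genes of these types (Cdx2, Gata6 and Col3a1 among them) were not analysed here. Of the markers tested, Eomes (trophectoderm), Gata4 (primitive endoderm) and Thy1 (fibroblast) had 0 TPM as listed in each GFP-negative library. In GFP-positive cells of the fusion line Eomes was at 3.42, Gata4 at 2.13 and Thy1 at 7.27 TPM, and in those of the plain-GFP line Eomes was at 2.64, Gata4 at 1.64 and Thy1 at 11.9 TPM. Eomes, Gata4 and Thy1 reached 1 TPM in the GFP-positive libraries alone and so met the filter only through them. Among the other trophectoderm, primitive endoderm and fibroblast markers tested, Krt18, Lama1 and Col4a1 were also higher in GFP-positive cells of both lines. Tead4, Tfap2c and Sparc were lower in both, and Ascl2 and Twist1 went opposite ways in the lines. The part of other cell types in the member ratios was not tested.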

How the data were processed

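The deposited values are TPM per reference transcript, 1 table for each of the 4 libraries, estimated by the authors. CASAVA, HISAT2 2.1.0 and StringTie 1.3.5 and the build GRCm38 (mm10) are named per the submitters' processing notes. The options, the annotation release and how transcripts were selected for listing were not given in those notes or the labels. TPM hold no read counts, so depth is unknown and no counting interval is given.

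TPM were summed per symbol, and ratios used log2(TPM + 1), which understates changes of low genes. Tested genes had 1 TPM or more in at least 2 libraries, and for counts within a line also 5 TPM or more in either library of the pair. Since each population is 1 library, a call within a line means 2-fold or more, without a test. The package limma 3.58.1 (R 4.3.3), with robust and trended variance, two-sided p and Benjamini-Hochberg adjustment, fitted GFP status and line over all 4 libraries, leaving 1 residual degree of freedom. The step was run on simulated data with known shifts, to check that the median estimate recovered their size. The error rate of its p-values was not checked. Alternatives were other pseudocounts, median-ratio scaling, quantile normalization, other filters, the transcript with the highest mean only, no term for line, and each library left out.

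The members, lists, motifs and the rule for named genes were chosen with earlier results of these data known. The rule named all members, the genes of each other pathway list with the largest and smallest mean ratio, the LIF receptor genes, Stat3, Socs3, Fgf4, Dusp6, Zscan4c and the 3 nearest genes of each member past 2-fold in both lines. Id3 was named after its values were seen. Positions are from GENCODE M21. Promoter windows are RefSeq's, and those shown were cut where GENCODE places the gene's first base. Words were counted in the uncut windows, which include windows of starts inside a gene. Tbx3 and Fbxo15 had no window used.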

Additional observations from a re-analysis of the deposited data

Results flagged for a closer look

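Klf4 and Klf2 were singled out because GFP-positive and GFP-negative cells differed in opposite directions in the lines. For Klf4 the log2 ratio in the fusion line minus that in the plain-GFP line was 2.95, from ratios of 1.54 and -1.42. For Klf2 it was 0.86, from ratios of 0.25 and -0.61. With 1 library per population the difference between lines was not tested for either gene. Both kept opposite signs under each pseudocount and scaling tried.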

How the results depend on the processing

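Of 100 recomputed ratios of members within a line, 99 kept their direction or stayed under 2-fold, and the exception was Esrrb in the plain-GFP line at 7.65 with the transcript of highest mean only. The counts of genes 2-fold or more apart depended on the genes kept. In the fusion line the count was 1200, against 2402 with no filter, 766 among genes above 0 in all libraries and 68 among genes at 100 TPM or more. In the plain-GFP line it was 4333, against 7023, 2211 and 86 under the same alternatives. Quantile normalization moved the share of these that were higher in GFP-positive cells from 72.2% to 58.5% in the fusion line and from 84.1% to 65.0% in the plain-GFP line.

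Limma called 0 genes at an adjusted p of 0.05, with 972 at an unadjusted p under 0.05, against 3 calls with a pseudocount of 5 TPM and 342 after quantile normalization. Under the quantile alternative the adjusted p in limma was 5.2e-09 for Tbx3 (estimate 1.61) and 9.9e-16 for Fbxo15 (1.41). Such small values come with 1 residual degree of freedom, and the cause was not tested. Without each library in turn, fitted on GFP status alone, the count ran from 0 to 4204, the highest without the GFP-negative library of the fusion line. The lone GFP-negative library is then assumed to vary like the others, and limma's adjusted p was 0.0121 for Tbx3 (1.77) and 0.036 for Fbxo15 (1.31). Across these fits Tbx3 ran from 1.64 to 1.77 and Fbxo15 from 1.21 to 1.55, while Klf4 (-1.04 to 1.16), Klf2 (-0.55 to 0.19) and Zfp42 (-0.04 to 0.11) changed sign. Under median-ratio scaling the estimates of Klf4 and Zfp42 were -0.01 and -0.03. The reported fit pairs the populations by line, and without the term for line limma also called 0 genes (adjusted p of 0.245 for Tbx3 and Fbxo15). No paired analysis other than this pairing by line was possible, because each population was 1 library. Unknown depth limits what can be said of low genes.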
